A study of Arabidopsis thaliana with 4 samples.

Results

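The mitochondrion-encoded genes were described here as every row of the deposited expression table whose gene ID begins with ATMG, the prefix of the Arabidopsis mitochondrial genome. The rule found 146 of the table's 33602 rows. Guard cells of Arabidopsis thaliana, 12 days post germination, had been sorted by fluorescence from protoplasts (cells freed of their walls) of the shoot, and their RNA was sequenced. The 2 FAMA-LGK libraries came from plants with the fama-1 allele of FAMA and a FAMAp:FAMA-LGK transgene. The 2 wild type (WT) libraries came from plants without these alleles. FAMA is a transcription factor needed for guard cell differentiation, and in FAMA-LGK the motif that binds the retinoblastoma-related protein is altered. The FAMA promoter drives the transgene in the stomatal lineage, and the series calls the FAMA-LGK guard cells reprogrammed and the WT ones fully differentiated. The labels do not say whether the 2 libraries of a genotype had separate plantings behind them, so the distance between them may be technical. The p-values and standard errors (SE) draw on that distance and on a variance borrowed from genes of similar level. An SE is therefore not the replicate scatter of its row alone.

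The mitochondrial genome of plants encodes a small set of respiratory chain and ATP synthase subunits, factors that attach haem to cytochrome c, ribosomal proteins, ribosomal RNAs (rRNAs) and transfer RNAs (tRNAs). Most other mitochondrial proteins are encoded in the nucleus, and each respiratory complex except the succinate dehydrogenase is built from products of both genomes. Several plant mitochondrial genes, among them nad1, nad2 and nad5, are transcribed in pieces whose RNAs are then spliced together in trans. In Arabidopsis a large copy of the mitochondrial genome also lies in nuclear chromosome 2. Guard cells are rich in mitochondria.

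Of the 146 rows, 2 were at 0 in all libraries, 11 had values above 0 but a mean under 1 TPM (a level corrected for gene length, with the same total in every library), and 133 were tested. A protein or rRNA name was given to 35 rows. For 17 rows a reference note names the product of a near-identical nuclear gene. For 18 rows the name rests only on the gene length recovered from the TPM values. That length equals the RefSeq gene of that name, or a run of its adjacent exons (the segments kept in the RNA). Of the names that rest on length, 15 have a length that no other ATMG row has. The named rows are 33 protein-coding ones and the rRNA genes rrn18 and rrn5. A further 16 rows were 71 to 88 bases long, the range of the 22 RefSeq mitochondrial tRNAs, and are called tRNA-sized rows. The other 95 rows are given by ID, with no role.

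The libraries held an estimated 17823244 and 17452648 reads in FAMA-LGK and 17893338 and 20084477 in WT. Nuclear rRNA took 33.0% and 22.3% of TPM in FAMA-LGK and 24.2% and 27.1% in WT. The groups overlapped, with FAMA-LGK replicate 1 highest and replicate 2 lowest. The FAMA row itself, which cannot tell the transgene from the gene, had 94.3 and 81.2 TPM in FAMA-LGK and 66.1 and 65.6 TPM in WT. Of 10 guard cell markers, FAMA among them, 6 were called lower and 1, MYB60, higher in FAMA-LGK. Over all genes tested, 6.14% were called lower and 6.45% higher. The summed level of the 10 was 2933 and 2577 TPM against 17957 and 13857 TPM in WT. Most of each sum was TGG1, with 2652 and 2313 TPM in FAMA-LGK and 16420 and 12487 TPM in WT. Of 5 epidermis markers, 4 were called higher, with sums of 349.6 and 303 TPM in FAMA-LGK against 109 and 76.0 TPM in WT. None of 5 mesophyll markers was called in either direction by limma (2 had an unadjusted p under 0.05), with sums of 373 and 425 TPM against 438 and 506 TPM. Trichome and vasculature markers were all under the minimum, with sums of at most 3.53 TPM. The part of these differences in the mitochondrial results was not tested.

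Mitochondrial rows held 5.95% and 6.46% of all TPM in the FAMA-LGK libraries, against 4.99% and 4.57% in the WT libraries. Both FAMA-LGK values lay above both WT values, and the mean share was 6.21 ± 0.358% in FAMA-LGK and 4.78 ± 0.293% in WT (SD, n = 2 each), a ratio of 1.3. With 2 libraries against 2, an exact two-sided permutation test cannot give a p below 0.33, so the share was not tested. In estimated reads the mitochondrial share was 6.27% and 7.17% in FAMA-LGK and 5.37% and 5.14% in WT. A larger share can mean more mitochondrial RNA or less of other RNA, and TPM cannot tell these apart. In bulk samples, fewer cells of a type and less RNA per cell also cannot be told apart.

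The difference depended on what the rows were set against. Relative to the TPM of nuclear genes other than rRNA, mitochondrial TPM amounted to 16.0% and 13.8% in FAMA-LGK and 10.4% and 9.62% in WT, a ratio of 1.49. Chloroplast rows, the other organelle's 133 genes, took 23.9% and 24.4% of TPM in FAMA-LGK and 22.8% and 20.7% in WT. Their groups did not overlap either, and their ratio was 1.11.

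**Figure D1:**
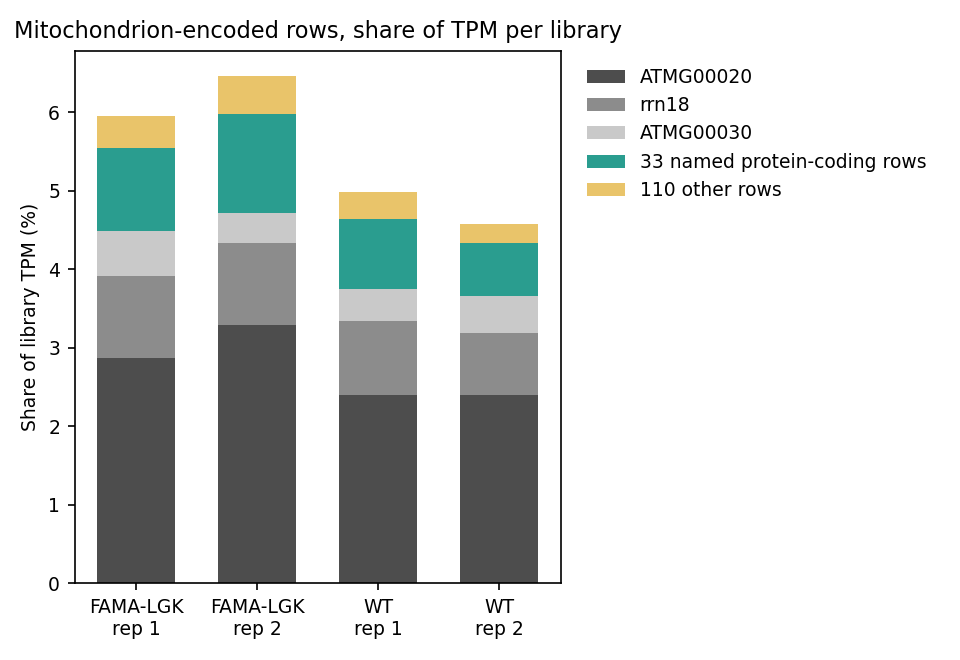
Share of each library's TPM (%) held by mitochondrion-encoded rows, with a bar per library divided into ATMG00020, rrn18, ATMG00030, the 33 named protein-coding rows and the 110 other rows. The FAMA-LGK bars reach 5.95% and 6.46% and the WT bars 4.99% and 4.57%, and ATMG00020 fills about as much of each bar as everything else.

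A few rows held most of the mitochondrial signal. ATMG00020, a row of 2568 bases, alone held 48.3% and 50.9% of mitochondrial TPM in FAMA-LGK and 48.0% and 52.5% in WT. With rrn18, the RNA of the small ribosomal subunit, and ATMG00030 it held 75.3% and 73.0% in FAMA-LGK and 75.1% and 80.1% in WT, so the groups overlapped. The 33 named protein-coding rows together held 17.9% and 19.5% of mitochondrial TPM in FAMA-LGK and 17.8% and 14.8% in WT. With ATMG00020, rrn18 and rrn5 left out, the remaining rows held 2.03% and 2.12% of TPM in FAMA-LGK and 1.65% and 1.38% in WT, a ratio of 1.37.

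Each row was then compared between genotypes with limma on log2(TPM + 1), with Benjamini-Hochberg adjustment over the 15143 genes of the whole table that passed the minimum. A row was called where the adjusted p was under 0.05, and fold changes are log2 values, FAMA-LGK minus WT, on that scale, which understates the change of low rows. Of the 133 tested mitochondrial rows, 22 were called higher in FAMA-LGK and 0 lower. Among all genes tested, 6.45% were called higher and 6.14% lower. Limma gave 73 mitochondrial rows an unadjusted p under 0.05, all higher, and limma's voom on estimated reads called 9 higher and 0 lower. Over all 15143 genes tested, voom called 1014 higher and 971 lower. Its share of higher calls was thus about the same in the mitochondrial rows as in all genes. The fold change was above 0 for 126 rows and below 0 for 7, where 54.1% of all genes tested were above 0. The median fold change was 0.66 over the mitochondrial rows and 0.06 over all genes tested.

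Both FAMA-LGK libraries were above both WT libraries for 97 of the 133 rows, where 31.6% of all genes tested showed this, and below both for 2 rows, ATMG00310 and ATMG01100, where 25.7% of all genes did. The calls needed each of the WT libraries. With WT replicate 1 left out, or WT replicate 2, limma called no gene at all, though 66 and 28 mitochondrial rows still had an unadjusted p under 0.05, and 1 of the 28 was lower. Without FAMA-LGK replicate 2, 8 mitochondrial rows were called, and without a minimum on low values 3.

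**Figure D2:**
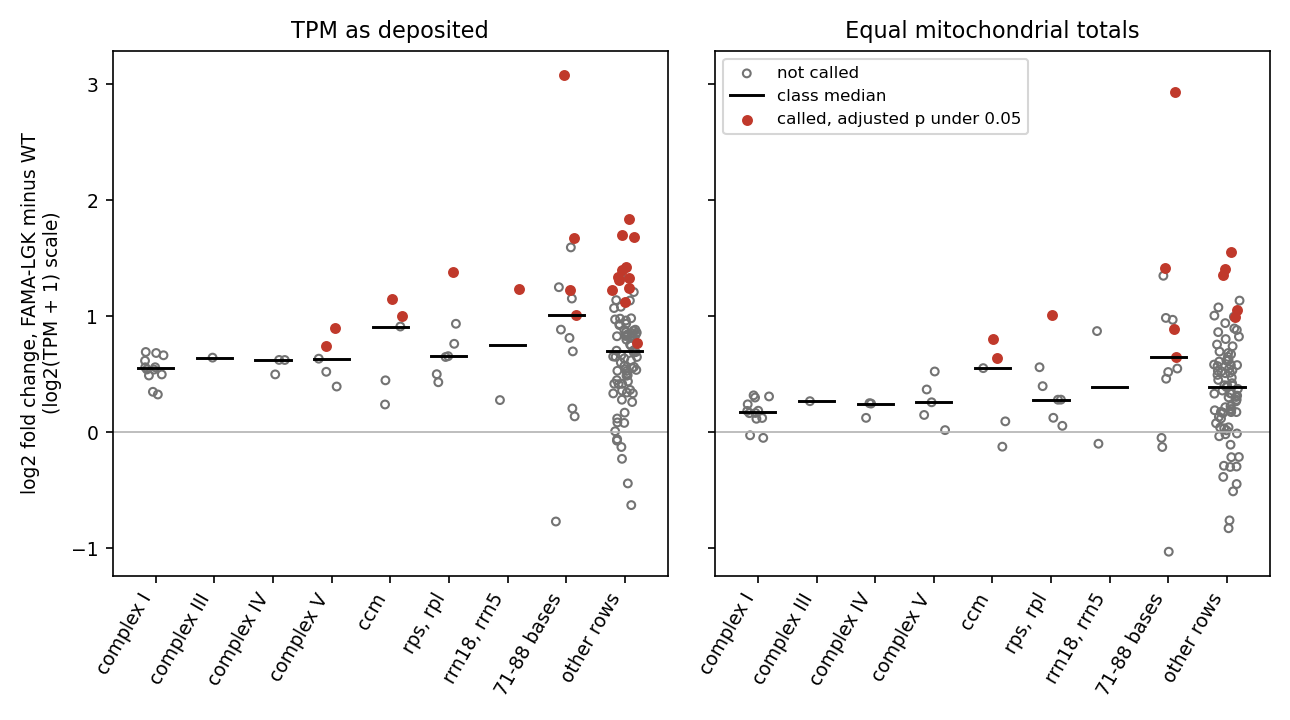
Log2 fold change, FAMA-LGK minus WT, of each tested mitochondrial row by class, for TPM as deposited (left) and after scaling all libraries to equal mitochondrial totals (right); filled points are called and lines are class medians. On the left 126 of 133 rows lie above 0, and on the right 112 do.

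Complex I, the NADH dehydrogenase that passes electrons into the respiratory chain, had the most named rows, 12 for its nad subunits. All 12 had fold changes above 0, between 0.32 and 0.69 with a median of 0.55, and none was called by limma (6 had an unadjusted p under 0.05, and voom called 0). The nearest to the threshold was nad3, a membrane subunit, with 166 and 227 TPM in FAMA-LGK against 131 and 109.7 TPM in WT. Its FAMA-LGK libraries were both above the WT ones, and the fold change was 0.69 ± 0.23 (SE, limma adjusted p = 0.0791). The smallest difference was that of nad7, with 166 and 208 TPM in FAMA-LGK and 172 and 128 TPM in WT. It was the only nad row in which the groups overlapped.

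Levels of the nad rows spanned a wide range, and the rows for pieces of trans-spliced genes differed in TPM. The highest was nad5a, the row for the first piece of nad5, with 1169.8 and 1478 TPM in FAMA-LGK and 1051 and 757 TPM in WT. The lowest was nad6, another membrane subunit, with 39.6 and 41.9 TPM in FAMA-LGK and 29.7 and 21.6 TPM in WT. TPM values are per length, but reads over a row as short as nad5b (22 bases) may not scale with its length. Whether the ratios below reflect unequal RNA was not tested. The level of nad5a was 1.48 and 1.66 times that of nad5c, a row of 542 bases, in FAMA-LGK, and 1.58 and 1.69 times in WT. It was 2.74 and 3.18 times that of nad5b, a row of only 22 bases, in FAMA-LGK, and 2.79 and 2.87 times in WT. For nad1, the level of the nad1a row was 0.556 and 0.55 times that of nad1c in FAMA-LGK and 0.626 and 0.636 times in WT. Both nad5 ratios overlapped between genotypes, while both nad1 ratios of FAMA-LGK lay below both of WT. This difference was not tested. The nad1a row also has a near-identical nuclear copy, and how reads that match both were assigned is not given in the sources used here.

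Complex III has a single mitochondrial subunit, cytochrome b, encoded by cob. It had 464 and 573 TPM in FAMA-LGK against 354 and 308 TPM in WT, a fold change of 0.64 ± 0.23 (SE, limma adjusted p = 0.0958). Complex IV, the cytochrome c oxidase that hands electrons to oxygen, has its 3 core subunits encoded here. The catalytic subunit cox1 had 563 and 661 TPM in FAMA-LGK and 404 and 388 TPM in WT. Lower levels were found for cox2, which receives electrons from cytochrome c, with 222 and 313 TPM in FAMA-LGK and 211 and 165 TPM in WT. The third subunit, cox3, had 129.6 and 150.4 TPM in FAMA-LGK and 97.8 and 83.4 TPM in WT. All 3 had FAMA-LGK libraries above WT libraries, with fold changes of 0.50 to 0.62, and none was called by limma (2 had an unadjusted p under 0.05, and voom called 0).

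Complex V, the ATP synthase, had 2 of its 5 named rows called higher, both encoding membrane-part subunits. The row of atp8 had 281 and 284 TPM in FAMA-LGK against 173 and 132 TPM in WT, a ratio of 1.85 between means and a fold change of 0.90 ± 0.22 (SE, limma adjusted p = 0.0258). For atp6-1, a copy of the proton channel subunit a, the values were 181 and 183 TPM in FAMA-LGK and 113 and 104 TPM in WT, a fold change of 0.74 ± 0.20 (SE, limma adjusted p = 0.0376). In both, the FAMA-LGK libraries nearly coincided and the WT libraries lay well below them. The catalytic-part subunit alpha, atp1, was the most abundant, with 1042 and 1182 TPM in FAMA-LGK and 785 and 652 TPM in WT, and was not called (limma adjusted p = 0.124). The stator subunit atp4 had 716 and 885 TPM in FAMA-LGK and 706 and 520.3 TPM in WT, so that the nearest libraries of the genotypes almost met. The c-ring subunit atp9 had 127 and 96.0 TPM in FAMA-LGK and 73.9 and 79.4 TPM in WT.

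The cytochrome c maturation genes, whose products move and attach haem to cytochromes c, were the least abundant protein-coding class and had 2 of 5 rows called higher. For ccmFn2, part of the haem-attaching enzyme, the level was 18.5 and 21.1 TPM in FAMA-LGK and 7.55 and 9.22 TPM in WT, a ratio of 2.36 and a fold change of 1.15 ± 0.25 (SE, limma adjusted p = 0.0160). For ccmB, a transporter subunit, it was 57.2 and 73.7 TPM in FAMA-LGK and 35.5 and 28.6 TPM in WT, a fold change of 1.00 ± 0.23 (SE, limma adjusted p = 0.0195). Neither gene's groups overlapped. Of the other rows for this enzyme, ccmFn1 had 17.2 and 20.1 TPM in FAMA-LGK and 14.6 and 12.3 TPM in WT, and ccmFc had 29.5 and 34.2 TPM in FAMA-LGK and 31.2 and 23.0 TPM in WT. The ccmFc groups overlapped, and its fold change of 0.24 was the smallest of all 33 protein-coding rows. The row of ccmC, another haem-handling protein, had 32.9 and 31.4 TPM in FAMA-LGK and 22.4 and 12.3 TPM in WT (limma adjusted p = 0.0669).

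Among the 7 ribosomal protein rows, rps7 stood out and was the protein-coding row with the largest fold change. This protein of the small subunit had 145 and 164 TPM in FAMA-LGK against 65.4 and 52.2 TPM in WT. The ratio between means was 2.62 and the fold change 1.38 ± 0.21 (SE, limma adjusted p = 0.00286). Limma called none of the other 6 (4 had an unadjusted p under 0.05), with FAMA-LGK libraries above WT libraries in each. Next was rps3, also of the small subunit, with 355 and 419 TPM in FAMA-LGK and 267 and 151 TPM in WT (fold change 0.93, limma adjusted p = 0.0572), which voom called higher (adjusted p = 0.0300). The smallest difference was in rps12, with 693 and 748 TPM in FAMA-LGK and 665 and 429 TPM in WT (fold change 0.43). The rows rps4, rpl2, rpl5 and rpl16 had fold changes of 0.76, 0.65, 0.50 and 0.66.

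**Figure D3:**
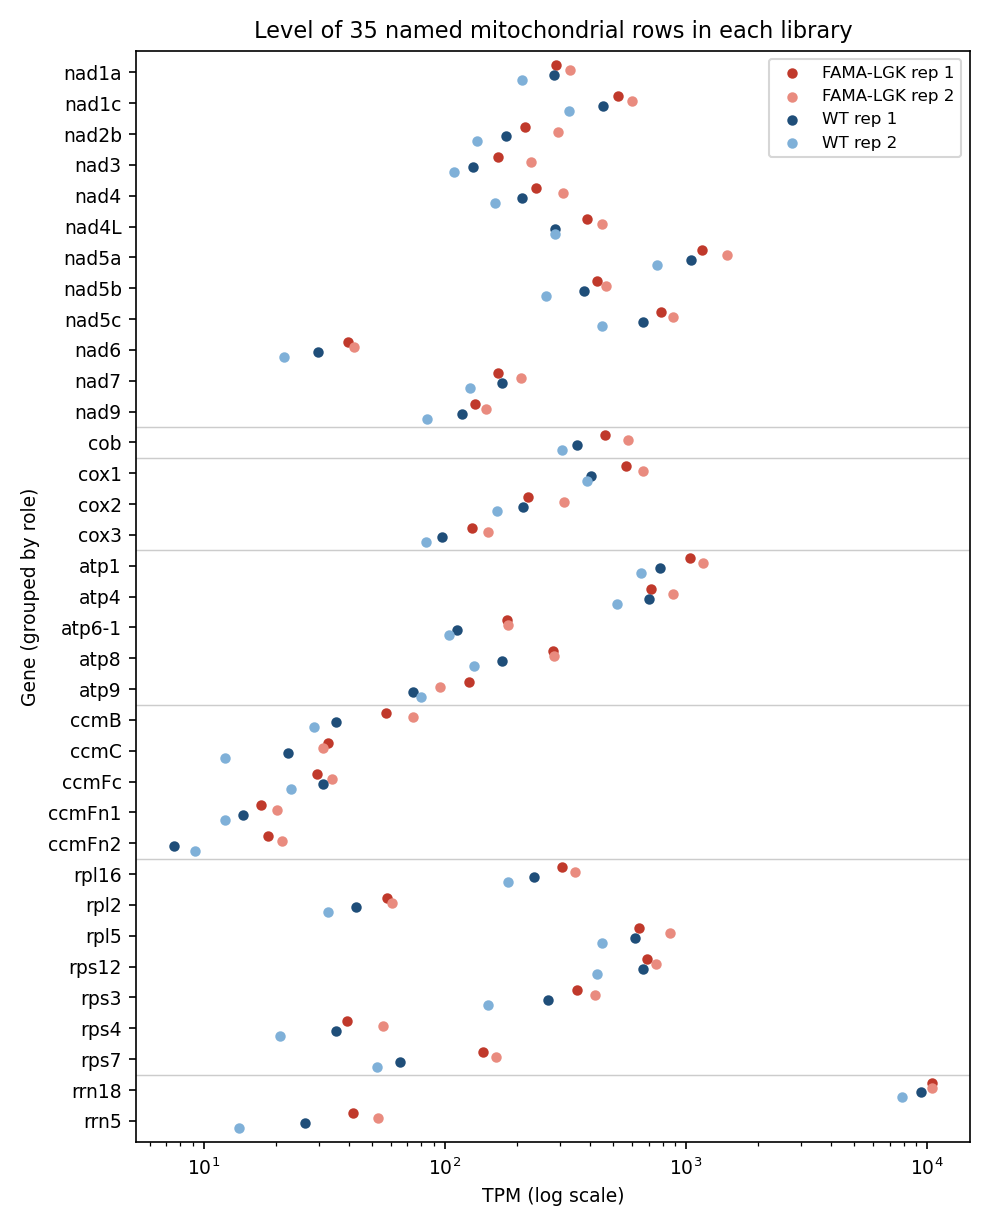
Level in TPM (log scale) of the 35 named mitochondrial rows, a point per library, grouped by role from complex I at the top to rRNA at the bottom. In 31 of the 33 protein-coding rows both FAMA-LGK points lie right of both WT points, all but nad7 and ccmFc.

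Over all 33 named protein-coding rows, every fold change was above 0, from 0.24 to 1.38 with a median of 0.62, and the 5 described above were called. This direction depends on scaling: after setting equal mitochondrial totals, 3 of the 33 (nad7, nad1a and ccmFc) were below 0. The rows also varied together within a genotype. WT replicate 1 was above WT replicate 2 in 31 of the 33, and FAMA-LGK replicate 2 above replicate 1 in 31. The spread between WT replicates was largest for ccmC, whose level was 1.82 times as high in WT replicate 1, and rps3 followed at 1.77 times.

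The rRNA rows differed in level by orders of magnitude. rrn18 had 10458 and 10482 TPM in FAMA-LGK and 9469 and 7893 TPM in WT, a fold change of 0.28 ± 0.40 (SE, limma adjusted p = 0.703). The much lower rrn5, the small RNA of the large ribosomal subunit, had 41.5 and 52.7 TPM in FAMA-LGK and 26.4 and 14.1 TPM in WT. It was called higher, with a fold change of 1.23 ± 0.30 (SE, limma adjusted p = 0.0246) that rests on 51 and 65 reads in FAMA-LGK and 33 and 20 in WT. ATMG00020, the highest row of all, had 28732 and 32874 TPM in FAMA-LGK and 23949 and 24008 TPM in WT. Its groups did not overlap, and it was not called (fold change 0.36 ± 0.54, SE, limma adjusted p = 0.715). The SEs of ATMG00020 and rrn18 are wider than the log2 distances between their own replicates. They draw on the variance borrowed from genes of similar level.

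The tRNA-sized rows were scarce, with 13 of 16 tested and 99 and 97 reads in all in FAMA-LGK against 60 and 43 in WT. Of the 13, 4 were called higher. The most abundant, ATMG00930, had 31.1 and 31.0 TPM in FAMA-LGK and 15.3 and 14.6 TPM in WT, or 24 and 24 reads against 12 and 13 (fold change 1.01 ± 0.22, SE, limma adjusted p = 0.0162). ATMG00390 had 15.0 and 17.3 TPM in FAMA-LGK and 7.95 and 5.0 TPM in WT (limma adjusted p = 0.0220). ATMG00700 had 8 and 4 reads in FAMA-LGK and none in WT, so its level was at least 2.08-fold higher when WT is set to a floor of 3 reads per library. ATMG00460 had 3 and 7 reads in FAMA-LGK and 1 and 1 in WT, a ratio of 5.43 with an exact 95% counting interval of 1.16 to 50.9. These intervals and floors cover counting error only, since reads that carry no molecular identifiers can be copies of 1 molecule. The next most abundant were not called: ATMG00100 had 22.3 and 19.6 TPM in FAMA-LGK against 12.9 and 10.2 TPM in WT, ATMG00190 had 11.7 and 15.5 TPM against 10.2 and 4.49 TPM, and ATMG00350 had 5.12 and 2.55 TPM against 7.54 and 1.11 TPM. Voom on estimated reads called none of the 13, with 1 at an unadjusted p under 0.05.

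Among the 95 other rows, 85 were tested and 12 called higher, where voom called 4. The 12 were low, with mean levels of 7.18 to 51.0 TPM in FAMA-LGK and 2.37 to 23.6 TPM in WT. The smallest p was that of ATMG00140, with 18.1 and 16.7 TPM in FAMA-LGK and 4.49 and 4.94 TPM in WT, or 95 and 88 reads against 24 and 30. Its fold change was 1.69 ± 0.26 (SE, limma adjusted p = 0.00286). ATMG00750 had the largest fold change of the 12, 1.84 ± 0.36 (SE, limma adjusted p = 0.00981), with 11.5 and 9.83 TPM in FAMA-LGK and 3.40 and 1.38 TPM in WT. The other called rows were ATMG00150, ATMG00630, ATMG00670, ATMG00810, ATMG00820, ATMG00920, ATMG00950, ATMG00970, ATMG01050 and ATMG01260, with fold changes of 0.77 to 1.70 and limma adjusted p of 0.0141 to 0.0480.

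Limma called none of the abundant rows without a name. ATMG00030 had 5641 and 3809.7 TPM in FAMA-LGK and 4074 and 4725 TPM in WT, with the WT values between the FAMA-LGK ones. ATMG01120 had 1023 and 1362 TPM in FAMA-LGK and 1035 and 586 TPM in WT. ATMG01170 had 368 and 437 TPM in FAMA-LGK and 275 and 193 TPM in WT (fold change 0.80, limma adjusted p = 0.0592), and voom called it higher (adjusted p = 0.0364). ATMG00200 had 254 and 314 TPM in FAMA-LGK and 306 and 146 TPM in WT, and the groups overlapped. The lower side held few rows: of the 2 whose FAMA-LGK libraries were both below WT, ATMG00310 had 0.413 and 1.03 TPM against 1.82 and 1.43 TPM in WT, and ATMG01100 had 2.41 and 2.71 TPM against 2.96 and 3.39 TPM in WT. Across the tested rows, the fold change varied little with level or length (Spearman rho -0.12 with mean TPM and -0.10 with length, over 133 rows that share the same 4 libraries).

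To look at changes inside the set, every library was multiplied by a factor that made its mitochondrial total equal. Of the 133 tested rows, 12 were then called higher and 0 lower, where 3.94% of all genes were called higher and 15.8% lower. All 12 were among the 22 called before. Limma gave 26 rows an unadjusted p under 0.05 and higher and 1 lower, and voom called 3 higher and 0 lower. Over all 15143 genes voom then called 661 higher and 2616 lower, a larger share of higher calls than among the mitochondrial rows. With this scaling the median fold change was 0.33 over the mitochondrial rows and -0.26 over all genes. The difference of these medians was 0.59, and 0.60 without the scaling. A factor per library shifts both medians by about the same amount, so these differences had to be close and are no separate result.

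Of the named rows, rps7, ccmFn2 and ccmB stayed called after this scaling, with fold changes of 1.01, 0.80 and 0.64 (limma adjusted p = 0.00581, 0.0446 and 0.0459). Calls of atp8, atp6-1 and rrn5 were lost, with fold changes of 0.52, 0.37 and 0.87 (limma adjusted p = 0.0738, 0.148 and 0.0533). The other rows called were ATMG00390, ATMG00460, ATMG00700 and ATMG00930 of the tRNA-sized ones and ATMG00140, ATMG00750, ATMG00810, ATMG00950 and ATMG01050. The total is set largely by ATMG00020 and rrn18, whose fold changes were -0.02 and -0.10 after scaling. With the total taken without ATMG00020, rrn18 and rrn5, 7 rows were called higher and 0 lower. With a median ratio over mitochondrial rows in place of the total, 6 were called higher and 3 lower (ATMG00280, ATMG00690 and ATMG01340), and 25 of the 33 protein-coding rows were below 0. As with the unscaled values, no mitochondrial row was called when either WT library was left out.

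Many of these rows have near-identical nuclear copies. Reference notes pair 55 nuclear genes of chromosome 2 with 53 mitochondrial rows, and their sequences matched the mitochondrial genome at 99.0% identity or more, 28 of them at 100%. Over the 55 pairs the level of the nuclear copy was a median of 0.966 times that of the mitochondrial row, and 38 pairs were within 1.5-fold. The others ranged widely, with 1 copy listed at 0 and the rest between 0.132 and 6.48 times. For 18 pairs with a named protein-coding row, the level of the nuclear copy was 0.489 to 1.70 times that of the mitochondrial row, with a median of 0.975, and 14 were within 1.5-fold. The copy of atp1, AT2G07698, had 752 and 821 TPM in FAMA-LGK and 541 and 459 TPM in WT. That of rps7, AT2G07696, had 100.3 and 122 TPM in FAMA-LGK and 51.9 and 36.2 TPM in WT and was called higher (fold change 1.33, limma adjusted p = 0.00632). How reads that match both places were assigned is not given in the sources used here, so levels and fold changes of the paired rows are uncertain, and whether the nuclear copies are transcribed was not tested.

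**Figure D4:**
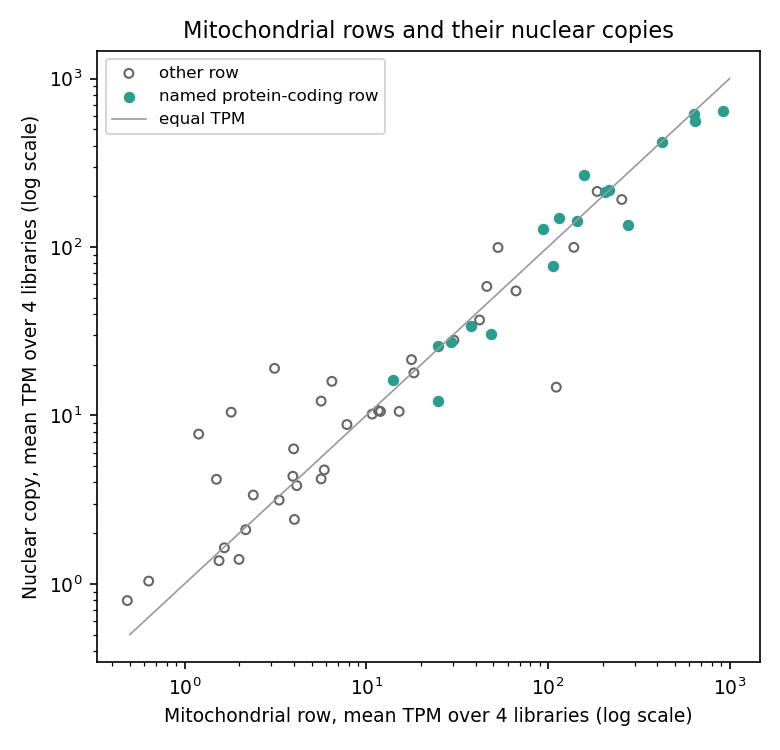
Mean TPM over the 4 libraries of each nuclear copy (vertical, log scale) against that of its mitochondrial row (horizontal, log scale), with filled points for named protein-coding rows and a line at equal TPM; a copy listed at 0 is not drawn. Named pairs lie along the line, with ratios of 0.489 to 1.70.

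Of the 55 copies, 53 were tested, 11 called higher and 0 lower (31 had an unadjusted p under 0.05 and higher, and voom called 8 higher and 0 lower), and their median fold change was 0.66. Over all genes tested, limma called 6.45% higher and 6.14% lower, and 4291 of 15143 had an unadjusted p under 0.05 in either direction. Voom called 1014 of the 15143 higher and 971 lower. All copies together held 0.518% and 0.608% of TPM in FAMA-LGK and 0.431% and 0.325% in WT. Of the named protein-coding rows, 17 have such a copy, and their median fold change was 0.65 with 4 called. The 16 for which no note gives a copy had a median of 0.55 with 1 called, which is ccmB. Chromosome 2 was not searched for unnoted copies of these 16. With the copies counted in, the mitochondrial share was 6.47% and 7.07% of TPM in FAMA-LGK and 5.42% and 4.90% in WT.

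The nuclear partners of these genes were set beside them. Of 49 nuclear genes for cytochrome c and subunits of the respiratory complexes and ATP synthase, 7 were called lower in FAMA-LGK and 0 higher (15 had an unadjusted p under 0.05, all lower, and voom called 4 lower and 0 higher). Over all genes tested, 6.14% were called lower by limma, and 4291 of 15143 had an unadjusted p under 0.05 in either direction. Voom called 971 of the 15143 lower, so its share of lower calls among the 49 was near that of all genes. The median fold change of the 49 genes was -0.39, against 0.06 over all genes tested. The summed level of the 49 was 1426 and 1565 TPM in FAMA-LGK and 1953 and 2090 TPM in WT. Of these, 42 belong to complexes I, III, IV and V, which hold subunits of both genomes, and 5 of them were called lower and 0 higher, with a median of -0.34 (voom called 2 lower). The 42 summed to 1147 and 1214 TPM in FAMA-LGK and 1458 and 1533 TPM in WT. The 21 named mitochondrial rows of the same 4 complexes summed to 8270.4 and 9764 TPM in FAMA-LGK and 6869 and 5365 TPM in WT, with a median fold change of 0.56 and 2 called higher. Over these complexes, mitochondrial TPM was 7.21 and 8.04 times the nuclear TPM in FAMA-LGK and 4.71 and 3.50 times in WT, and the groups did not overlap. A common scaling factor leaves this ratio as it is. The difference in the ratio was not tested.

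The 3 nuclear genes with the smallest p were CYTC-2, QCR8-1 and SDH2-1. CYTC-2 encodes cytochrome c, the carrier between complexes III and IV, and had 90.9 and 123 TPM in FAMA-LGK against 189 and 266 TPM in WT (fold change -1.08 ± 0.25, SE, limma adjusted p = 0.0194). QCR8-1, a small subunit of complex III, had 19.4 and 16.6 TPM in FAMA-LGK against 37.2 and 33.8 TPM in WT (limma adjusted p = 0.0222). SDH2-1, the iron-sulphur subunit of succinate dehydrogenase, had 32.6 and 40.3 TPM in FAMA-LGK against 65.8 and 71.3 TPM in WT (limma adjusted p = 0.0233). None of these 7 calls was kept without either WT library, and with libraries scaled to their nuclear non-rRNA total 2 genes were called lower.

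Of 22 nuclear genes for mitochondrial transcription, splicing, editing and RNA processing, 16 were tested, 1 was called higher and 0 lower (1 had an unadjusted p under 0.05 and lower, and voom called 1 lower), and the median fold change was 0.02. The gene called was PRORP1, an RNase P that cuts the 5′ ends of organelle tRNA precursors. It had 21.1 and 30.03 TPM in FAMA-LGK and 6.55 and 4.27 TPM in WT, a fold change of 2.05 ± 0.29 (SE, limma adjusted p = 0.00195). Both FAMA-LGK libraries were well above both WT libraries. RPOTm, the mitochondrial RNA polymerase, had 3.61 and 3.03 TPM in FAMA-LGK and 7.92 and 5.80 TPM in WT and was not called (limma adjusted p = 0.108).

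**Figure D5:**
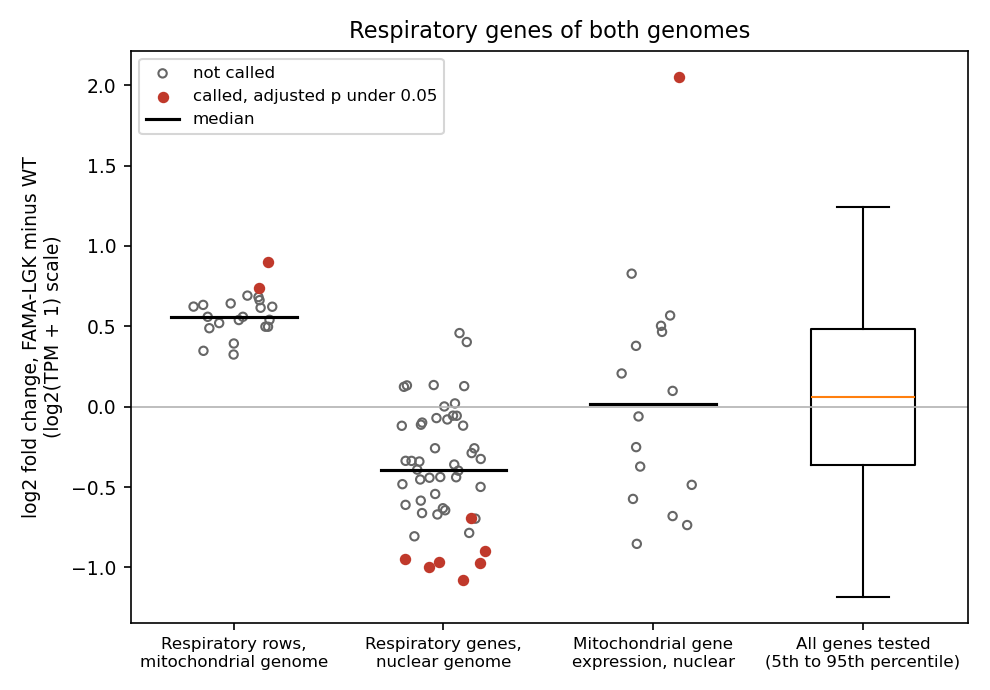
Log2 fold change, FAMA-LGK minus WT, of 21 respiratory rows of the mitochondrial genome, 49 nuclear respiratory genes and 16 nuclear genes of mitochondrial gene expression, with filled points called and lines at medians; the box shows the quartiles and the 5th to 95th percentile of all genes tested. The mitochondrial rows lie between 0.32 and 0.90, while 41 of the 49 nuclear genes lie below 0.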

How the data were processed

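The authors deposited 1 table of TPM values per gene and library, made from HTSeq read counts per the labels; CASAVA 1.8.2, Bowtie2, HTSeq and the TAIR10 genome are named per the submitters' processing notes. For strand setting, gene lengths and reads with several matches, the procedure is not given in the sources used here. Members and gene lists were chosen with earlier results of these data known.

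The test was limma 3.58.1 (R 4.3.3; eBayes with a trend, two-sided) on log2(TPM + 1) of all 4 libraries, with Benjamini-Hochberg adjustment over genes whose mean reached 1 TPM and a threshold of 0.05; the fit was tested on simulated data. For the change within the set, libraries were first scaled to equal mitochondrial totals. TPM made from whole reads are whole multiples of a step set by library and gene length, so read numbers and lengths were estimated for all 23227 genes above 0 (largest distance from a whole number 0.00082). A factor shared by all 4 libraries stays unknown per gene, so totals of 17452648 to 20084477 reads are estimates; at 1500 bases, 3 reads equal 0.166 to 0.192 TPM. Nuclear copies were matched to the mitochondrial genome of the reference with blastn 2.17.0; 52 of 55 matched over their whole length. Reference and TAIR10 differ in name, so no coordinates or sequences are given.

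Named are all rows of the protein and rRNA classes, of tRNA-sized and other rows the 5 most abundant and every called one, and of each nuclear list the 3 called genes with the smallest p. Naming RPOTm and the rows lower in both libraries, or lower under another scaling, was decided after their values were seen. Of 41 rows listed with a name, 6 kept their ID, as neither a note nor the length bore the name out; 3169 bases is the RefSeq length of rrn26, against 2568 for ATMG00020. Alternatives were pseudocounts 0.1 and 5, other minimums and variance models, a replicate block, each library left out, and other scalings; voom and read shares were added after seeing the data. Tables used pandas 2.3.3, numpy 2.4.6 and scipy 1.17.1 under Python 3.11.15, and figures matplotlib 3.10.9.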

Additional observations from a re-analysis of the deposited data

How the results depend on the processing

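The direction of the mitochondrial difference held in every alternative run for the share of TPM and no row was called lower on TPM as deposited, but the number of calls depended on the settings. Called higher were 22 rows as reported, 3 without a minimum, 11 without a variance trend, 43 with nuclear rRNA removed, 53 with libraries scaled to nuclear non-rRNA TPM, 9 with voom (7 of them among the 22), and 0 to 17 with a library left out. After scaling to equal mitochondrial totals 12 were called, and 3 without a minimum, 4 without a trend, 3 with voom, 7 with a total that leaves out ATMG00020, rrn18 and rrn5, 6 with a median ratio (which called 3 lower), and 0 to 8 with a library left out. Nuclear respiratory genes called lower were 7, and 0 without a minimum, 0 without a trend, 2 with the nuclear non-rRNA scale, 4 with voom and 0 to 3 with a library left out. For nuclear genes of mitochondrial gene expression the 1 called higher became 0 to 1 with a library left out, and voom called 1 lower. Among all genes tested, 1907 were called, 511 without a minimum and 0 to 1685 with a library left out. The log2 ratio of the mitochondrial share was 0.38, was 0.57 on the nuclear non-rRNA scale, and lay between 0.32 and 0.44 with a library left out. Scaling to nuclear non-rRNA TPM changed the split of all calls to 67.7% higher, against 51.2%, and raised the median of all genes to 0.25, from 0.06. On that scale 1538 of all 17434 genes tested were called higher, with 141 mitochondrial rows tested. With nuclear rRNA removed, 1217 of all 16089 were, with 136 mitochondrial rows tested. The rise in mitochondrial calls under these settings was thus partly shared by all genes. With a library left out, 7 or 8 of the 133 tested rows took the other sign, 20 rows in all, none of them called. Those named here were ATMG00030 (-0.20 to 0.36), ATMG00200 (-0.12 to 0.95), ATMG00350 (-0.87 to 1.15, and -0.0018 with pseudocount 5) and ATMG00690 (-0.012 to 0.18), while ATMG00280 was 0.12 on the nuclear non-rRNA scale. Replicate numbers are shared by the genotypes in the labels as numbers only, and the deviations of same-numbered libraries had a correlation of 0.078. With the replicate block 50 mitochondrial rows were called higher, and so were 1479 of all 15143 genes, against 977 as reported. Where no cause is given, it was not tested. With 2 libraries a genotype, 1 library decides many calls, and rows with few reads are limited by depth.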
